A study of Sus scrofa with 9 samples.

Results

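The transcriptome of pig blastocysts that received no injection is described from 3 RNA-seq libraries, taken alone and without a contrast. The series holds 9 samples, described as embryos with no siRNA, with a control siRNA or with an siRNA against the chromatin remodeller INO80, and only the 3 samples with no siRNA enter here. Total RNA came from porcine blastocysts of unstated breed, day and embryo number, and the labels do not say whether the libraries came from separate embryo pools, so the spread between them may be technical. The loci described are the 17065 of 88800 in the gene table with a transcript that matches a known one exactly, shares a splice junction with it or lies within it. These are called annotated loci, and 14708 of them were above 0 in at least 1 library. Levels are FPKM, fragments per kilobase of transcript scaled to library size, which allows genes of different length to be set side by side within a library. Values separated by "then" or listed together are for libraries 1, 2 and 3 in that order.

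A blastocyst is a fluid-filled embryo before implantation. Its outer layer, the trophectoderm, is a sealed epithelium that pumps ions and water into the cavity and later forms the fetal part of the placenta. The inner cells separate into epiblast, which gives rise to the body of the fetus, and primitive endoderm, which lines the cavity and forms yolk sac. Because RNA of all cells was pooled, a low level cannot be assigned to fewer cells of a type or to less RNA per cell.

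The 3 libraries were similar in depth, with 4.57, 4.59 and 4.82 Gb of aligned sequence implied by the ratio of coverage to FPKM. They differed in how much of the signal lay on annotated loci. Annotated loci carried 40.4% of all FPKM in library 1, 31.8% in library 2 and 53.9% in library 3. FPKM is per length, so this is not a share of sequence. Of the bases that covered transcripts, 67.7%, 61.0% and 74.6% lay on annotated transcripts. Library 2 was the lowest by both measures and library 3 the highest. Pearson correlations of log2(FPKM + 1) across 17065 loci were 0.944 between libraries 1 and 2, 0.943 between 1 and 3 and 0.928 between 2 and 3, as a description across genes of libraries of the same kind.

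Keratins, actin regulators, ribosomal proteins, respiratory chain subunits and an iron-binding locus led the ranking. The highest annotated locus carries only the identifier ENSSSCG00000014540 and lies on chromosome 2 at 8983158 to 8986185. The authors' deposited table annotates it with ferric iron binding, iron transport and cellular iron homeostasis. It stood at 24884 FPKM in library 1, 20483 in library 2 and 14065 in library 3, each time more than any other annotated locus. On its own it made up 7.13%, 7.06% and 3.94% of all annotated FPKM, and library 3 was the low one. Nearly all of its signal sat in an assembled transcript of 4 exons and 1098 bp that shares a splice junction with the known one, at 24843, 20476 and 14040 FPKM. The exact known transcript of the same locus was at 55.2, 8.91 and 34.1 FPKM.

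TMSB10, a thymosin that binds actin monomers, was the highest locus with a symbol, at 5740.5, 5421 and 6858 FPKM. Its spread between libraries was small, with a coefficient of variation (CV, the SD divided by the mean) of 0.126. SERF2, a small protein known to promote amyloid formation in vitro, came next by locus FPKM among loci with a symbol. It was uneven, at 3939, 787 and 5101 FPKM. The low value was that of library 2. The related actin-binding thymosin TMSB4X was at 1795, 1785 and 1313 FPKM. FTL, the light chain of ferritin, the iron store of the cell, was at 843, 2568 and 1177 FPKM, highest in library 2; a further annotated locus carries the same name.

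Both simple-epithelium keratins were among the highest loci. KRT18, a type I keratin, was at 2058, 1686 and 5946 FPKM. Its type II partner KRT8 (chromosome 5, 18663339 to 18671193) was at 1531, 1170 and 2467 FPKM, with a mean of 1722 ± 669 (SD, n = 3). Both were highest in library 3 and lowest in library 2. KRT18 exceeded KRT8 in 3 of 3 libraries, by 1.34, 1.44 and 2.41 times. By contrast, KRT19, another simple-epithelium keratin, was at 2.87, 0.808 and 2.77 FPKM, and VIM, the intermediate filament of mesenchymal cells, was at 1.99 FPKM in library 1 and listed at 0 in the others.

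**Figure D1:**
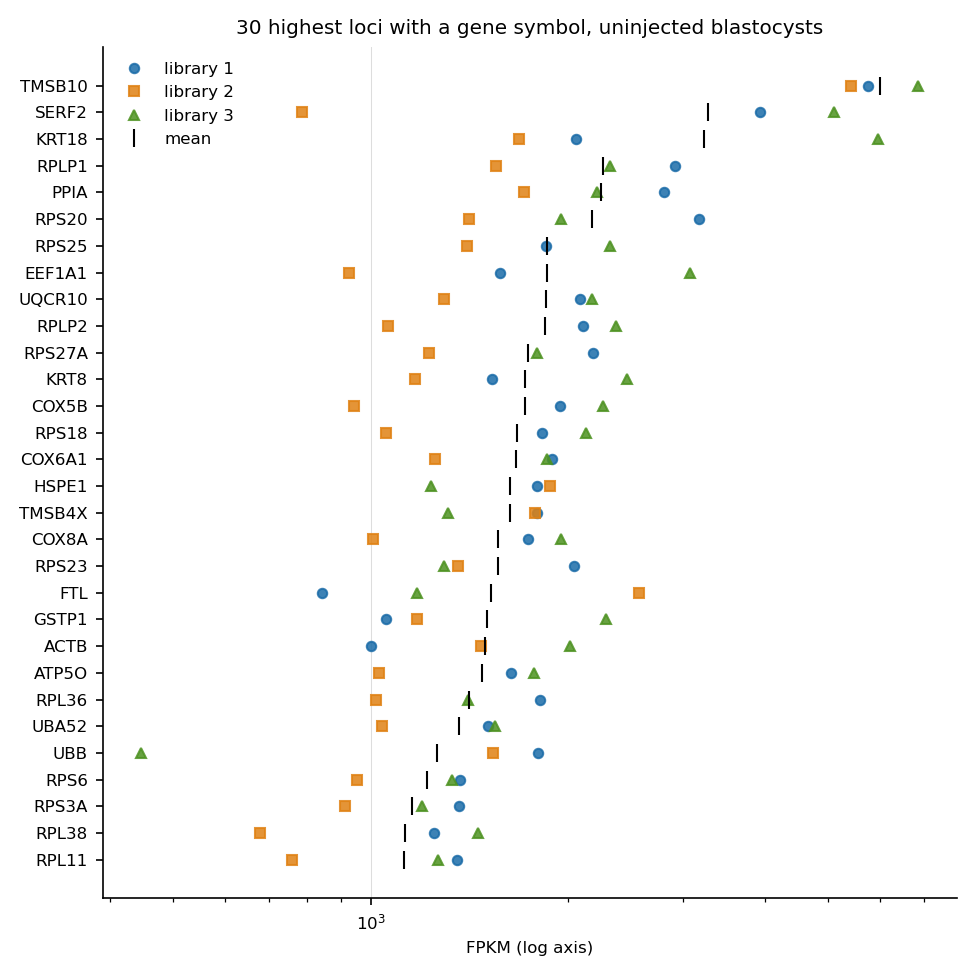
FPKM (log axis) of the 30 annotated loci with a gene symbol and the highest mean, 1 marker per library and a bar at the mean. TMSB10 sits between 5421 and 6858, while SERF2, UBB and FTL spread widely, and most ribosomal protein genes are lowest in library 2.

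Protein synthesis and respiration took much of the rest of the ranking. Of the 50 highest annotated loci, 23 were ribosomal protein genes by symbol or KEGG term and 9 others carried the oxidative phosphorylation term. Of the same 50, 12 had an identifier without a symbol, and 7 of these are among the 23 by their ribosome term. RPLP1, an acidic protein of the ribosomal stalk, was at 2920, 1555 and 2320 FPKM. Its leading transcript was at 4745, 2527 and 3770 FPKM, above the locus value. The order of the highest loci thus holds for locus FPKM only. RPS20, a small-subunit protein, was at 3178, 1416 and 1951 FPKM. EEF1A1, the factor that brings aminoacyl-tRNA to the ribosome, was at 1576, 927 and 3070 FPKM. These genes have near-identical copies elsewhere in the genome, so that reads may have been split between loci and their levels are uncertain.

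The 25 highest annotated loci together held 22.8%, 19.9% and 21.6% of annotated FPKM, a mean of 21.4% ± 1.42 (SD, n = 3). The 100 highest held 44.2%, 38.6% and 44.4%. The libraries thus differed by a few percentage points in how much their highest loci took, with library 2 the least concentrated. When the 25 highest were picked in each library separately, 13 loci were on all 3 lists. A total of 51 loci had a mean of at least 1000 FPKM, and their longest annotated transcripts, assembled forms included, were short, with a median of 773 bp. The 5580 loci with a mean from 1 to 10 FPKM had a median of 2596 bp and held 5.34%, 7.48% and 5.74% of annotated FPKM.

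At 1 FPKM or more in all 3 libraries were 6400 of the 17065 annotated loci, or 37.5%. This share is the background against which the gene lists below are read, together with the median of the mean level over all annotated loci, 0.886 FPKM. The lists are textbook sets of genes chosen with earlier results of these data known. They are described by counts and levels, with no test, since 1 group of 3 libraries allows no comparison between groups.

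Trophectoderm genes were prominent. Of 16 trophectoderm genes with an annotated locus, 12 were at 1 FPKM or more in all 3 libraries, and the median of their means was 23.5 FPKM. After the keratins, DAB2, an adaptor for endocytosis, was highest at 286, 151 and 299 FPKM. AQP3 (chromosome 10, 37307556 to 37313382), a channel for water and glycerol, was at 47.7, 72.9 and 64.8 FPKM and had a CV of 0.208. CLDN7, a tight junction claudin, was at 75.7, 62.9 and 217 FPKM, high in library 3. Its relative CLDN6 ran the other way, at 243, 81.4 and 8.68 FPKM, high in library 1 and low in library 3, and CLDN4 was listed at 0 in all 3.

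The transcription factors of the trophectoderm were far lower than its keratins. GATA3 (chromosome 10, 69581080 to 69602534) was at 14.7, 13.7 and 33.2 FPKM. GATA2, a factor of the same family, was at 16.0, 16.8 and 46.7 FPKM. By locus FPKM it was above GATA3 in 3 of 3 libraries, by 1.09, 1.23 and 1.41 times. Both loci have several transcripts, and the leading GATA3 transcript of libraries 2 and 3 was at 17.5 and 44.9 FPKM, above the locus value. The order of the pair may thus depend on the scale of locus FPKM. Both genes were highest in library 3, and neither separated libraries 1 and 2 by much. TFAP2C, an AP-2 factor, was at 6.37, 36.6 and 47.6 FPKM, low in library 1. TEAD4, the DNA-binding partner of the Hippo co-activators, was at 10.8, 8.11 and 12.9 FPKM. CDX2, a homeobox factor of trophectoderm, was under 1 FPKM in every library, at 0.0643, 0.261 and 0.621. ELF5, an ETS factor, reached 1.03 FPKM in library 3 and was at 0.292 and 0.401 in the others. No annotated locus carried the names KRT7 or EOMES, and they are not analysed here.

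Of 14 epiblast and pluripotency genes with a locus, 9 were at 1 FPKM or more in all 3 libraries, with a median of means of 7.06 FPKM. POU5F1 (chromosome 7, 27262624 to 27268634), the POU factor of pluripotent cells, was at 91.4, 63.9 and 53.9 FPKM. GDF3, a ligand of the TGF-beta family, was at 56.7, 90.1 and 58.2 FPKM. Their ranges overlapped, and POU5F1 was the higher of the pair in library 1 only. DPPA5, an RNA-binding protein of pluripotent cells, was at 18.0, 32.2 and 140 FPKM, so that library 3 set its mean. TDGF1, a co-receptor for Nodal, was steadier at 30.6, 22.1 and 28.2 FPKM. ESRRB, an orphan nuclear receptor of naive pluripotency in the mouse, was at 19.8, 9.63 and 19.0 FPKM. SALL4, a zinc finger factor, was at 11, 9.35 and 0.611 FPKM, low in library 3, as were KLF4 at 5.55, 6.11 and 1.54 and the DNA methyltransferase DNMT3B at 1.38, 1.27 and 0.370. SOX2, the HMG-box partner of POU5F1, was at 0.0498, 0 and 0.753 FPKM. NANOG, UTF1, FGF4 and NODAL had no annotated locus by name and are not analysed here.

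Primitive endoderm genes were mostly low. Of 15 with a locus, 4 were at 1 FPKM or more in all 3 libraries, and the median of means was 0.505 FPKM. GATA6 (chromosome 6, 99758631 to 99791362), the GATA factor of primitive endoderm, stood at 16.1, 12.4 and 22.7 FPKM, the highest of the list. By locus FPKM, POU5F1 exceeded GATA6 in 3 of 3 libraries, by 5.66, 5.16 and 2.37 times. POU5F1 has a single transcript, while the GATA6 locus has several. The GATA6 form that led in libraries 1 and 2 was at 22.7 and 13.5 FPKM there, above the locus value. The size of these ratios thus depends on the scale of locus FPKM. Basement membrane laminins followed, with LAMB1 at 2.36, 3.73 and 3.64 FPKM and LAMC1 at 1, 1.83 and 2.42 FPKM. GATA4 was above 1 FPKM in library 1 only, at 3.08, 0.707 and 0.405. SOX17, a factor of endoderm, was at 0.306 FPKM in library 1 and listed at 0 in the others. FOXA2 and SPARC, the latter a matrix protein, were listed at 0 in all 3. The longest annotated transcript of the SPARC locus is 465 bp. Whether it covers the whole gene was not tested, so the 0 of SPARC by name is uncertain.

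**Figure D2:**
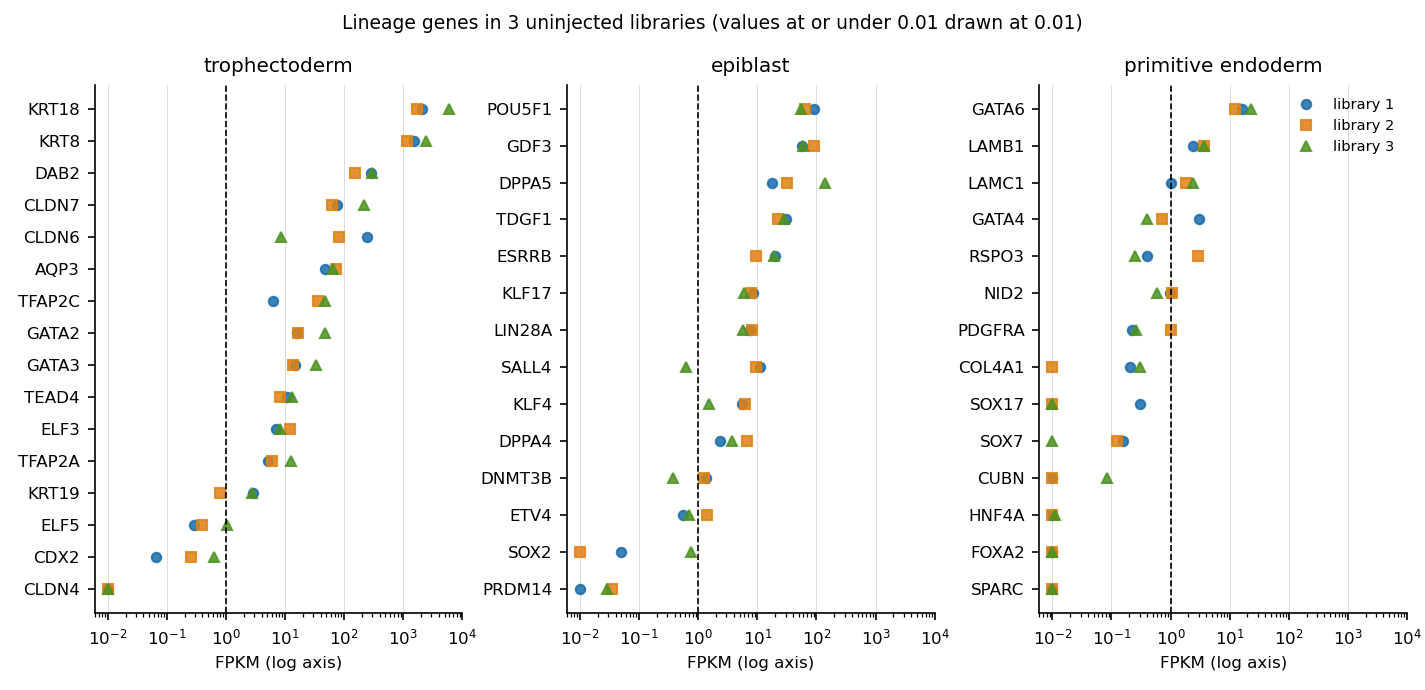
FPKM (log axis) of trophectoderm, epiblast and primitive endoderm genes with an annotated locus, leaving out a gene not reported here, 1 marker per library, with a dashed line at 1 FPKM and values at or under 0.01 drawn at 0.01. KRT18 and KRT8 lie above 1000 in each library, GATA2, GATA3 and GATA6 between 10 and 50, and CDX2 and SOX2 under 1.

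Markers of other cells the samples could hold were mostly low or listed at 0. In the list for cumulus and granulosa cells, 2 of 9 genes were at 1 FPKM or more in all 3 libraries. FST, a secreted inhibitor of activin, was at 24.2, 70.0 and 4.73 FPKM. SERPINE2, a protease inhibitor, was at 23.4, 25 and 14.1 FPKM. FOXL2, a transcription factor of granulosa cells, and PTX3 and TNFAIP6, which build the matrix of the expanded cumulus, were listed at 0 in all 3 libraries, TNFAIP6 at both loci that carry its name. The aromatase gene CYP19A1 reached 0.153 FPKM in library 3. None of 6 blood and immune genes and none of 5 sperm genes was at 1 FPKM or more in all 3. The leukocyte phosphatase PTPRC, the adaptor TYROBP and the erythroid enzyme ALAS2 were listed at 0. LYZ, lysozyme, was at 3.15, 6.81 and 0.651 FPKM and the macrophage protein CD68 at 0.585, 5.42 and 1.55, both at least 2-fold above the others in library 2. HBB, the beta chain of haemoglobin, was at 0.152, 1.03 and 0.0651 FPKM, also highest there. Of 11 oocyte genes, 2 passed, KPNA7, an importin of oocytes and early embryos, at 5.03, 3.39 and 10.2 FPKM and UCHL1, a ubiquitin hydrolase, at 2.52, 5.74 and 1.98 FPKM. GDF9, a growth factor of the oocyte, was at 0.238, 3.19 and 3.09 FPKM, lowest in library 1.

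Genes of oxidative metabolism were high in every library. Of a list of 51 nuclear genes of the respiratory chain and ATP synthase, 39 had an annotated locus. All 39 were at 1 FPKM or more in all 3, and 35 had a mean of at least 100 FPKM. Their median of means was 516 FPKM, and together they held 7.35%, 6.23% and 7.71% of annotated FPKM. Under the wider KEGG term for oxidative phosphorylation, 91 of 101 loci were at 1 FPKM or more in all 3. COX5B, a subunit of cytochrome c oxidase, was at 1947, 944 and 2268 FPKM. UQCR10, a small subunit of the cytochrome bc1 complex, was at 2088, 1293 and 2177 FPKM. Library 2 was the low one for both. ATP5A1, the alpha subunit of ATP synthase, was among the even ones, at 1170, 1083 and 1012 FPKM with a CV of 0.0731. Of the mitochondrial genome, 4 transcripts counted as annotated. ND1 was listed at 0 in all 3 libraries and ND2 was at 54.1, 45.9 and 0 FPKM. Zeros at such genes can be failed estimates, so no level is drawn for the mitochondrial genome.

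The citrate cycle and its entry were also covered. Of 26 genes, 25 were at 1 FPKM or more in all 3 libraries, with a median of means of 47.2 FPKM. SDHB, the iron-sulfur subunit of succinate dehydrogenase, was highest at 438, 332 and 471 FPKM. SUCLA2, a subunit of succinyl-CoA synthetase, was nearly equal across libraries at 62.5, 59.7 and 61.7 FPKM. DLD, the dehydrogenase shared by the 2-oxoacid complexes, was at 113, 103 and 109 FPKM. The anchor subunit SDHC was uneven by comparison, at 42.8, 9.02 and 76.6 FPKM, low in library 2.

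Glycolysis was more mixed. Of 17 genes, 11 were at 1 FPKM or more in all 3 libraries, with a median of means of 22.6 FPKM. TPI1, triose-phosphate isomerase, was at 156, 106 and 131 FPKM. GAPDH, the next enzyme, was at 90.7, 53.4 and 257 FPKM, high in library 3. ENO1, enolase, ran the other way at 255, 196 and 49.2 FPKM. The longest annotated transcript of the GAPDH locus is 534 bp. Whether it covers the whole gene was not tested, so the level of GAPDH by name is uncertain. The enzymes of the first, committing steps were low. The hexokinases HK1, at 0.535, 0.0933 and 2.01 FPKM, and HK2, at 0.721, 0.961 and 0.976, were near or under 1, and of the phosphofructokinases PFKL was at 5.42, 3.31 and 8.33 FPKM while PFKM and PFKP were each under 1 in at least 2 libraries. A locus named LDHB, for a lactate dehydrogenase subunit, was at 578, 306 and 444 FPKM. That locus has 1 exon, and a locus of 11 exons with the identifier ENSSSCG00000000576 and lactate dehydrogenase activity in the authors' deposited table was at 1528, 995 and 817 FPKM, so the level of LDHB by name is uncertain. SLC2A1 and SLC2A3, the glucose transporters, had no annotated locus by name and are not analysed here.

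SDHB exceeded GAPDH by 4.83, 6.21 and 1.83 times, and ATP5B, the beta subunit of ATP synthase, exceeded GAPDH by 12.7, 16.1 and 4.90 times. Both ratios were lowest in library 3, where GAPDH itself was highest. They rest on the GAPDH locus of 534 bp and share its uncertainty. In the pentose phosphate pathway, TALDO1, transaldolase, was at 281, 312 and 326 FPKM and TKT, transketolase, at 117, 145 and 135 FPKM. Both were even across the libraries, with CVs of 0.0757 and 0.108.

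**Figure D3:**
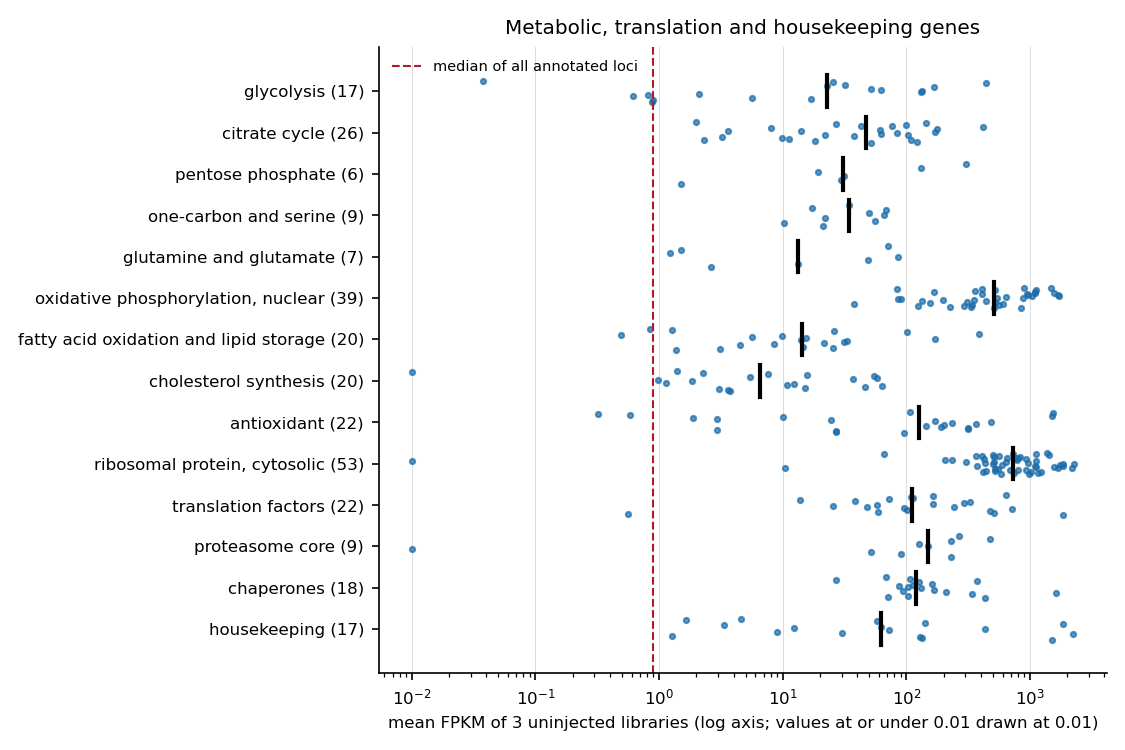
Mean FPKM of the 3 uninjected libraries (log axis) for each gene of 14 lists, 1 point per gene with the number of genes in brackets, a black bar at the list's median and a dashed line at the median of all annotated loci. The medians of respiratory chain and ribosomal protein genes, 516 and 734 FPKM, stand highest, and that of cholesterol synthesis, 6.55, lowest among these lists.

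Antioxidant enzymes and protein quality control were well represented. Of 22 antioxidant genes, 19 were at 1 FPKM or more in all 3 libraries, with a median of means of 126 FPKM. GSTP1, a glutathione transferase, was at 1055, 1178 and 2287 FPKM. PRDX6, a peroxiredoxin, was at 217, 268 and 220 FPKM, and PRDX3, its mitochondrial relative, at 136, 148 and 148 FPKM. All 18 chaperone genes passed, with HSPE1, the co-chaperonin of mitochondria, highest at 1793, 1879 and 1236 FPKM. CCT4, a subunit of the cytosolic chaperonin, was at 83.5, 89.3 and 89.1 FPKM. Of 9 proteasome core genes, 8 passed, and their median CV was 0.127, against 0.247 for all loci with a mean from 100 to 1000 FPKM, the range that holds their median level. PSMB4, a beta subunit, was at 240.1, 216 and 228 FPKM, while PSMA5 was listed at 0 at the chosen locus, 1 of 2 that carry its name.

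The usual reference genes differed widely in level and in evenness. Of 17 housekeeping genes with a locus, 15 were at 1 FPKM or more in all 3 libraries, and their median level was 61.9 FPKM. Their median CV was 0.406, above the 0.289 of all loci with a mean from 10 to 100 FPKM, the range that holds their median level. Some of the 17 lie outside that range, and all loci with a mean from 1 to 10 FPKM had a median CV of 0.451. PPIA, cyclophilin A, was at 2807, 1717 and 2215 FPKM with a CV of 0.243. ACTB, cytoplasmic actin, was at 1001, 1473 and 2018 FPKM with a CV of 0.340. GAPDH, at its locus with a longest annotated transcript of 534 bp, had a CV of 0.812. That was percentile 94.5 of the 2674 loci averaging at least 10 FPKM. TUBB, a beta tubulin, was at 19.2, 171 and 195 FPKM, low in library 1, with a CV of 0.743. PGK1, phosphoglycerate kinase, was among the even ones at 75.4, 57.7 and 52.5 FPKM with a CV of 0.195. TOP2B, a DNA topoisomerase, was at 3.99, 4.37 and 5.53 FPKM. B2M, the light chain of MHC class I, was at 3.19, 0.460 and 0.166 FPKM.

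Spread between the libraries was smaller at higher levels, up to 1000 FPKM. The median CV was 0.451 for loci with a mean from 1 to 10 FPKM, 0.289 from 10 to 100, 0.247 from 100 to 1000 and 0.275 at 1000 or more. Over the 2674 loci averaging at least 10 FPKM, it was 0.279. The steadiest of these with a symbol was SLU7, a splicing factor, at 14.9, 14.8 and 15.0 FPKM with a CV of 0.00649. SUPT4H1, a subunit of a transcription elongation factor, was at 39.4, 39.9 and 39.5 FPKM. MRPL3 and MRPS18A, proteins of the mitochondrial ribosome, the DNA damage enzyme PARP1 and the RNA-binding LSM6 were also among the 10 steadiest, with DHRS4, C19orf70, CABP7 and RNF10.

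At the other end stood loci with signal in 1 library. SERPINB2, a plasminogen activator inhibitor, was at 0.0690, 49.3 and 0.0324 FPKM. HAMP, the iron hormone hepcidin, was at 0.170, 185 and 5.88 FPKM. Both were high in library 2 alone. USMG5, a small subunit of ATP synthase, was at 330, 1.54 and 0.678 FPKM, high in library 1. Several others of the 10 most variable lie at loci of 1 exon, and overlapping transcripts were listed at some of them. The loci named RPS19, at 31.4, 0 and 0 FPKM, and RPL37A, at 0, 197 and 0, have 1 exon each. SDHAF1, an assembly factor of succinate dehydrogenase, was at 31.8, 0 and 1.91 FPKM, while another transcript over the same span was at 0, 47.0 and 6.95 FPKM. UQCC3, C1GALT1C1 and PSAT1 are also among the 10.

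Each library was then asked which loci it held at least 2-fold above the higher of the other libraries, among the 8254 loci averaging at least 1 FPKM. Library 1 stood above in 3.38% of them, library 2 in 8.95% and library 3 in 8.93%. Against these shares, several gene groups were uneven.

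In library 3, cholesterol synthesis genes stood out. Of 18 with a mean of at least 1 FPKM, 8 were at least 2-fold above the others in library 3, and 16 were highest there, against 2985 of all 8254 loci. IDI1, isopentenyl diphosphate isomerase, was at 5.98, 26.6 and 107 FPKM. SQLE, squalene epoxidase, was at 2.13, 8.35 and 26.7 FPKM. INSIG1, a membrane protein that holds back sterol synthesis, was at 0.138, 0.250 and 3.84 FPKM. Library 3 was the high one in these genes, but libraries 1 and 2 were not alike, since IDI1 and SQLE were lowest in library 1, and 4 genes of the list were at least 2-fold below both others there. By the KEGG terms of the authors' deposited table, 4 of 14 loci of steroid biosynthesis and 6 of 19 of terpenoid backbone biosynthesis were at least 2-fold above in library 3, or 28.6% and 31.6%.

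Some genes of serine and amino acid synthesis were also higher in library 3, though the wider amino acid pathways were mixed. PSAT1 and PSPH are consecutive enzymes of serine synthesis. PSAT1 was at 0.502, 0.365 and 30.1 FPKM, and PSPH at 10.7, 12.2 and 145. ASNS, asparagine synthetase, was at 8.93, 10.6 and 192 FPKM, 18.2 times the higher of the others in library 3. With MTHFD1L, a mitochondrial folate enzyme, at 30.4, 17.4 and 102 FPKM, 3 of 9 genes of one-carbon and serine metabolism were at least 2-fold above in library 3, and ASNS was 1 of 3 of 7 in the glutamine and glutamate list. By KEGG term, 4 of 12 loci of the folate one-carbon pool were at least 2-fold above there, or 33.3%. The amino acid terms lay on both sides of the 8.93% of all loci. Under it were glycine, serine and threonine metabolism, biosynthesis of amino acids, and alanine, aspartate and glutamate metabolism, at 7.69%, 6.67% and 5.26%. Branched-chain degradation was at 6.67%, and arginine and proline, tryptophan and beta-alanine metabolism were at 0%. Above it were aminoacyl-tRNA biosynthesis with 6 of 34, cysteine and methionine metabolism with 3 of 24 and lysine degradation with 3 of 26. These are 17.6%, 12.5% and 11.5%. PHGDH, which precedes PSAT1 in the pathway, did not share the pattern, at 13.0, 27.9 and 23.0 FPKM. Among loci picked after their values were seen, CHAC1, which degrades glutathione, was at 2.74, 5.26 and 27.6 FPKM, GARS, glycyl-tRNA synthetase, at 16.4, 19.7 and 105, and the autophagy receptor SQSTM1 at 19.2, 20.6 and 107. FABP3, a fatty acid carrier, was at 115, 151 and 891 FPKM, 5.90 times the higher of the others.

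Junction genes also leaned towards library 3, where 8 of 19 were at least 2-fold above the others. By KEGG term, 13 of 56 tight junction loci were, or 23.2%. DSG2, a desmosomal cadherin, was at 3.78, 7.56 and 23.5 FPKM. JUP, plakoglobin, was at 7.43, 10.7 and 29.8 FPKM. EPCAM, an epithelial adhesion molecule, was instead low in library 1, at 70.7, 196 and 162 FPKM. In the trophectoderm list, 5 of 13 genes were at least 2-fold above in library 3, namely KRT18, CLDN7, GATA2, GATA3 and TFAP2A, which was at 5.16, 6 and 12.5 FPKM. When the libraries were rescaled to the same annotated FPKM, this count was 3 and that of the junction list 6, while those of cholesterol synthesis, serine and glutamine genes were unchanged. Library 3 also had the largest share of its FPKM on annotated loci, and the part of that in these differences was not tested.

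In library 2, part of the cell cycle list was higher. Of 20 with a mean of at least 1 FPKM, 5 were at least 2-fold above the others in library 2 and 13 were highest there, against 3095 of all 8254 loci. The wider KEGG term for the cell cycle did not share this, with 6 of 68 loci at least 2-fold above in library 2, or 8.82% against 8.95% of all loci. CDK1, the mitotic kinase, was at 30.1, 132 and 34.1 FPKM. AURKB, a kinase of chromosome segregation, was at 1.23, 30.4 and 13.1 FPKM, and its low value was in library 1. CCNB1, cyclin B1, was at 46.0, 141 and 133 FPKM, so that libraries 2 and 3 were alike. MCM2, a subunit of the replicative helicase, was even at 9.69, 10.8 and 11.4 FPKM. Of 18 chaperone genes, 11 were highest in library 2, but 2, or 11.1%, were at least 2-fold above the others there, near the 8.95% of all loci. These were CANX and HSPA5. CANX, calnexin, was at 17.1, 53.6 and 10.6 FPKM, and HSPA5, the chaperone of the endoplasmic reticulum, at 45.1, 113 and 53.5. Ribosomal protein genes showed the opposite, with 1 of 52 highest in library 2, and the list held 14.9%, 10.9% and 13.5% of annotated FPKM. IL1B2, an interleukin 1 beta gene of the pig conceptus, was at 18.7, 61.3 and 0.826 FPKM. Library 2 was also the one in which LYZ, CD68 and HBB of the blood and immune list were highest, and the part of other cells in its differences was not tested. In library 1, PTGES, prostaglandin E synthase, was at 1502 FPKM against 85.9 and 223 in the others, 6.73 times the higher of them.

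**Figure D4:**
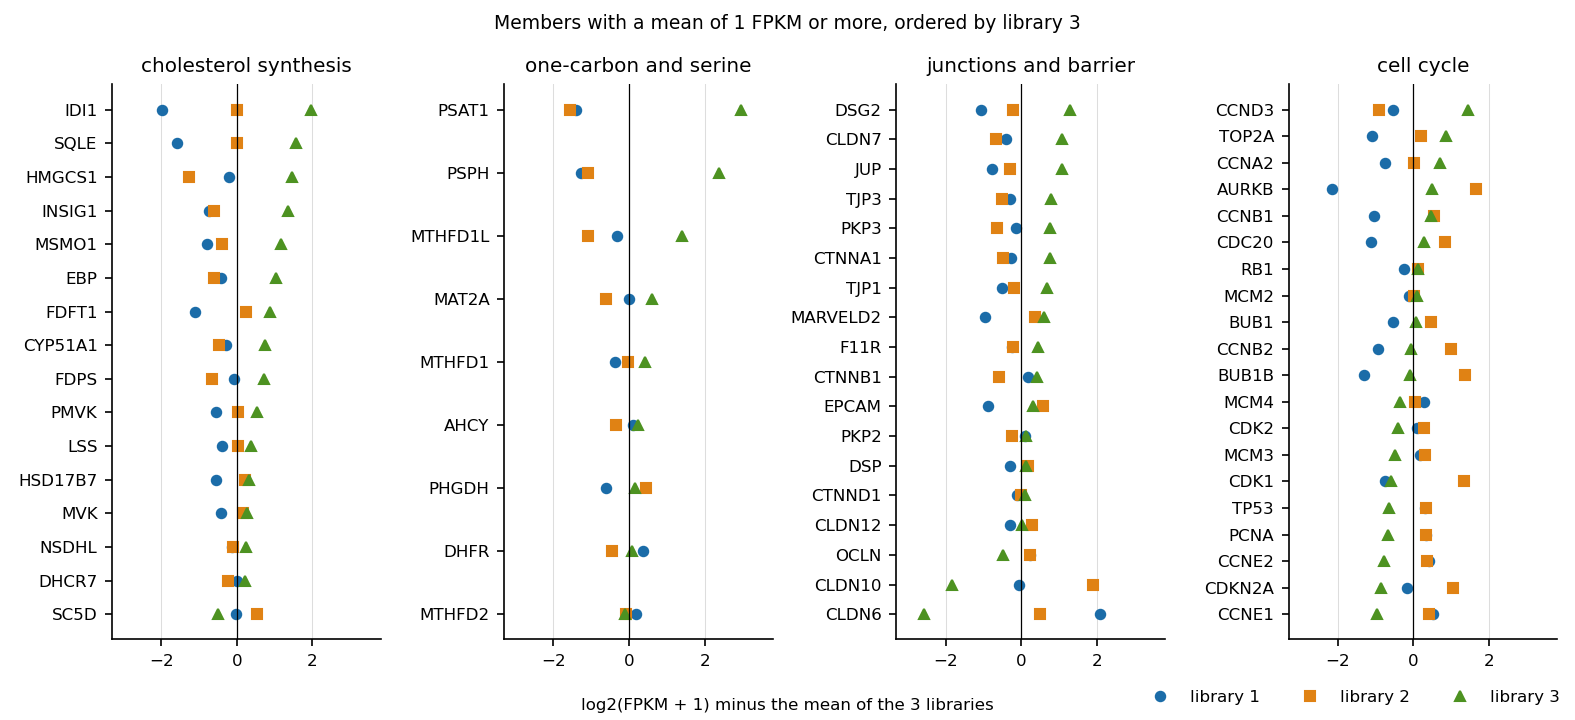
Difference of log2(FPKM + 1) from the mean of the 3 libraries for genes of 4 lists with a mean of at least 1 FPKM, leaving out genes not reported here, 1 marker per library, ordered by library 3. All cholesterol genes drawn but SC5D have library 3 furthest to the right, and in the cell cycle list 13 of 20 have library 2 there.

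Genes of ion and water transport, which fills the cavity, were covered in part. Of 15, 7 were at 1 FPKM or more in all 3 libraries. ATP1B1, the beta subunit of the sodium pump, was at 5.48, 3.15 and 0.0646 FPKM, least in library 3. FXYD4, a small regulator of the pump, was at 175, 702 and 968 FPKM, low in library 1.

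The transcript that led a locus was often not the same in every library. Of 5896 loci with at least 2 transcripts, a mean of at least 1 FPKM and signal in all 3 libraries, 3201 (54.3%) had the same dominant transcript, the one with the highest FPKM, in all 3. A further 2180 had 2 different ones and 515 had 3. The share with the same one was larger at higher levels, going from 45.4% at 1 to 10 FPKM to 70.9% at 10 to 100 and 84.8% at 100 or more. It was 72.7% for loci with 2 transcripts and 32.6% for those with 5 or more. The dominant transcript held a median of 86.8%, 85.4% and 85.2% of the summed transcript FPKM of its locus. It matched a known transcript exactly at 46.5%, 44.0% and 46.1% of loci and was an assembled form sharing a splice junction at 46.7%, 48.5% and 48.0%.

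Among the 30 highest loci with a symbol, 15 had at least 2 transcripts, and 13 of those kept the same dominant one in all 3 libraries, which for 7 was the exact known transcript. For KRT18 the known transcript of 9 exons held at least 99.9% of the summed FPKM in every library. TMSB4X was likewise led by its known transcript, at 98.9%, 98.7% and 99.6%. The exceptions were ACTB and UBB. The known ACTB transcript of 6 exons held 12.0% in library 1 but 79.0% and 81.3% in the others, and an assembled form of 7 exons led in library 1 with 38.3%. For UBB, a polyubiquitin gene, an assembled form of 741 bp held 88.5%, 59.8% and 15.5%, and another of 733 bp led in library 3 with 43.8%. Both genes have close copies, and no source used here states how reads were shared between them.

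Of the lineage genes, KRT8, POU5F1 and AQP3 had a single transcript each. GATA6 had 3, and an assembled form of 7 exons held 94.8%, 70.6% and 34.1%. The known GATA6 transcript of 6 exons held 0.498% and 1.47% in libraries 1 and 2 but led in library 3 with 39.6%. GATA3 had 8 transcripts. An assembled form of 2692 bp held 33.3%, 86.4% and 89.9%, and in library 1 a form of 2545 bp, absent from the others, led with 45.8%. For CLDN6 the known transcript held 89.1% and 90.2% in libraries 1 and 2 and was listed at 0 in library 3, where the whole locus was low. FABP3 was led by a form of 566 bp in libraries 1 and 3, at 87.0% and 96.4%, and by one of 777 bp in library 2, at 99.5%. In GATA6, GATA3, CLDN6 and FABP3 the leading transcript thus differed between the libraries.

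**Figure D5:**
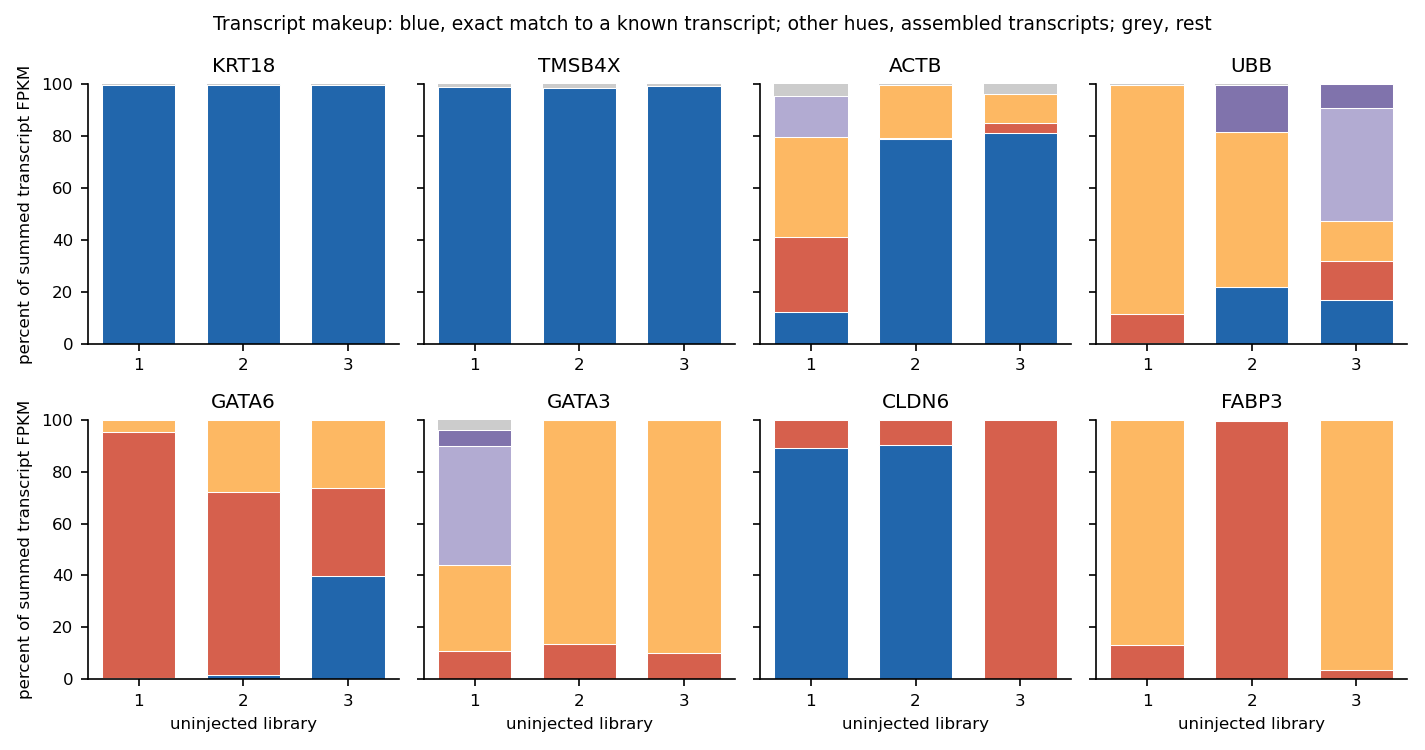
Percent of the summed transcript FPKM of 8 loci held by each transcript in the 3 uninjected libraries, with the exact known transcript in blue, assembled transcripts in other hues and those under 5% in every library in grey. KRT18 and TMSB4X keep 1 transcript near 100%, while ACTB, UBB, GATA6, GATA3, CLDN6 and FABP3 change their leading transcript between libraries.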

How the data were processed

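RNA-seq values of 3 libraries of uninjected pig blastocysts were read from 2 tables. FPKM per gene locus and per transcript and coverage per base of each transcript are given as the authors deposited them, per the file headers. Coverage was used only to find the depth and the share of bases on annotated transcripts. Divided by FPKM it is 1 constant per library. The submitters' processing notes name fastp, HISAT2, StringTie, edgeR, HOMER and ChIPseeker without versions, and GRCh38.p10, a human build, while the gene IDs are those of pig. The pig build behind the positions, the annotation release and strandedness are stated in no source used here. Another 18 columns, of the injected samples, were not used.

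A locus was annotated where a transcript had the class of an exact match, a shared splice junction or containment. Symbols were those of its annotated transcripts, with Ensembl IDs matched to symbols where the reference table held one (2190 of 6464). This left 12915 loci with 1 symbol, 4075 with IDs only and 75 with several. Where several loci carried a symbol, 1 with an exact transcript, then the longest, stood for it. Locus FPKM is on the scale of the gene table and is not the sum of transcript FPKM. At loci with several transcripts it can lie below the FPKM of the leading transcript. Ranks and ratios that set such loci beside loci with a single transcript depend on this scale.

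Means, SDs, CVs, counts and shares were computed with Python 3.11.15, pandas 2.3.3 and numpy 2.4.6 and drawn with matplotlib 3.10.9. They were checked on simulated data. No test was run, as 1 group of 3 libraries holds no contrast. The files used give no read counts, so no counting interval is given. Named are the 30 highest loci with a symbol, 5 lineage markers, the 5 highest and the undetected members of each list, all lineage genes, and the 10 steadiest and 10 most variable loci; others were chosen after their values were seen. Some genes that this rule names are not reported here but stay in the counts. The members and the 28 lists were chosen with earlier results of these data known. The list of 13 mitochondrial-encoded genes matched no locus by name alone. Alternatives changed the libraries included, the scaling, the definition of an annotated locus, thresholds and the measure of spread.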

Additional observations from a re-analysis of the deposited data

How the results depend on the processing

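The number of annotated loci at 1 FPKM or more in all 3 libraries, 6400, was between 6866 and 6931 when 1 library was left out, and 3088 with a minimum of 5 FPKM. The share of FPKM in the 25 highest loci, 21.4%, was between 20.9% and 22.4% with 1 library left out. The median CV of 0.279 was between 0.210 and 0.275 with 1 library left out. Those are CVs of 2 values, whose median tends to be lower than that of 3. It was 0.386 with 3 libraries and a minimum of 1 FPKM. Measured instead as an SD of log2(FPKM + 1) or log2(FPKM + 0.1), which is another scale, the spread was 0.40 and 0.41. The number of loci with the same dominant transcript, 3201, was between 3855 and 3922 when 1 library was left out, since 2 libraries then had to share it, and 1379 (73.2% of the loci left) with a minimum of 10 FPKM. Under the other alternatives run for these 4 results, each count stayed within 1.5 times of its value and each share or spread within 1 SD. The mean levels of 54 named genes were also recomputed. Rescaling moved those of SLU7 and SUPT4H1 by more than their small SDs, to 15.0 and 40.0 FPKM. Leaving out 1 library moved 12 of the 54 by over 1.5 times, among them the 10 most variable loci: without library 1, USMG5 fell from 111 to 1.11 FPKM; without library 2, RPL37A went from 65.5 to 0, HAMP from 63.7 to 3.02 and SERPINB2 from 16.5 to 0.0507; without library 3, PSAT1 went from 10.3 to 0.433. KRT18 went from 3230 to 1872 without library 3 and FTL from 1529 to 1010.1 without library 2. The rescaled counts of list members were added after the data were seen. No paired analysis was possible because the results come from 1 group and no test.

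Low levels are the least certain: the median CV was 0.914 for loci with a mean from 0.1 to 1 FPKM. FPKM is relative to the whole library, and signal outside annotated loci differed between libraries. The part of locus definition in zeros at loci of 1 exon or with overlapping transcripts was not tested.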

Other observations

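By the KEGG terms of the authors' deposited table, 224 terms had at least 10 annotated loci with a mean of 1 FPKM. Ribosome held the largest share of annotated FPKM, 21.5%, 16.1% and 19.2%, and oxidative phosphorylation followed with 11.7%, 9.77% and 12.4%. The proteasome term had the lowest median CV between the libraries, 0.179 over 29 loci, then the citrate cycle at 0.216, RNA polymerase at 0.225, and ribosome biogenesis and spliceosome at 0.232 each. Mineral absorption, which includes the highest locus, was among the most uneven terms with a median CV of 0.688 over 18 loci.

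Genes of the dialogue between conceptus and uterus had a median of means of 0.270 FPKM, against 0.886 FPKM for all annotated loci. Of 19 with a locus, 6 (31.6%) were at 1 FPKM or more in all 3 libraries, near the 37.5% of all annotated loci. FGFR2, a receptor for fibroblast growth factors, was at 7.11, 11.3 and 6.65 FPKM, and IL6ST, the signalling receptor of the LIF and IL6 family, at 34.9, 24.6 and 9.56. PTGS2, the inducible cyclooxygenase, was at 10.8, 2.54 and 39.2 FPKM, highest in library 3, unlike PTGES. The steroidogenic genes CYP17A1 and HSD3B1 and the interferon IFNG were listed at 0 in all 3 libraries. RGN, regucalcin, a calcium-binding protein, was at 104, 30 and 515 FPKM and LGALS1, a galectin, at 96.9, 450.2 and 1619 FPKM; both were highest in library 3. CYP26A1, which clears retinoic acid, was at 9.71, 49.6 and 1.68 FPKM, and CDC25B, a phosphatase that activates CDK1, at 16.2, 85.6 and 6.51, both highest in library 2.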
